A study of Schizosaccharomyces pombe with 21 samples.

Results

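The 8 genes described here are mmi1 (SPCC736.12c) and red1 (SPAC1006.03c), which encode parts of the machinery that destroys meiotic mRNAs in dividing fission yeast cells, and the meiotic genes mei4 (SPBC32H8.11), ssm4 (SPAC27D7.13c), rec8 (SPBC29A10.14), spo5 (SPBC29A10.02), rec25 (SPAC17A5.18c) and meu1 (SPAC1556.06). They were chosen by identifier, with earlier results of these data known, and all 8 were among the 6988 loci counted in both experiments. Poly(A)+ RNA of Schizosaccharomyces pombe cells in log phase at 30 °C was sequenced in 21 libraries, 3 cultures in each of 7 groups. In ePMGT medium, a synthetic medium, the groups were STF6 (asp1-W386*), STF9 (asp1-W493*) and asp1-WT, and the STF alleles and the asp1-WT allele of culture 1 were marked with hygMX. In YES medium, which contains yeast extract, the groups were kcs1-R332T, kcs1-L338R, kcs1-E834K and kcs1-WT, all 4 of them with a kanMX marker and an ADH1 terminator placed after kcs1.

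Asp1 makes and destroys inositol pyrophosphates, and the STF6 and STF9 stop codons truncate its pyrophosphatase domain. Kcs1 is an inositol hexakisphosphate kinase, and the 3 missense alleles came from a screen for suppressors of STF toxicity but were profiled here in cells with intact asp1. The strains also carried the nutritional markers leu1-32, ura4-D18 and his3-D1 with an ade6 allele. Each mutant group was a single strain, and the asp1-WT libraries carried the strain number BS216 for culture 1 and AS478 for the other cultures, so the strain and the culture cannot be told apart there. The strains were h+ haploids by the study's strain list, except that the mating type and marker of AS478 are not given in the sources used here. Nothing in the sources says whether the cultures of a strain were grown on separate days, so that the p-values measure the spread between these cultures.

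In vegetative cells many meiotic genes are transcribed but their mRNAs do not accumulate. Mmi1, an RNA-binding protein of the YTH family, binds copies of the hexamer UNAAAC in these transcripts, and the zinc-finger protein Red1 with its partners passes them to the nuclear exosome for degradation. When cells enter meiosis, the RNA-binding protein Mei2 and the noncoding meiRNA (the gene sme2) take Mmi1 out of action, and the transcripts accumulate. Because the RNA came from whole cultures, a few cells with much of a transcript and many cells with little cannot be told apart.

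The letters TNAAAC, the DNA form of the hexamer with N for any base, were searched on both strands of the RefSeq coding sequences (assembly ASM294v3, read by gene identifier). Copies of this hexamer cannot overlap each other on a strand. They occur at least once on the sense strand in 78.1% of 5097 coding sequences, with a median of 1.52 per kb. The coding sequence of rec25 held 4 copies (8.83 per kb), that of rec8 11 (6.52 per kb), that of ssm4 13 (6.46 per kb) and that of mei4 10 (6.43 per kb). Coding sequences at least as dense made up 0.294% of the total for rec25, 1.06% for rec8, 1.08% for ssm4 and 1.14% for mei4. The coding sequences of the other members were less dense, with 6 copies in spo5 (3.52 per kb), 7 in red1 (3.27 per kb), 4 in mmi1 (2.73 per kb) and 5 in meu1 (2.15 per kb), the densities of spo5 and meu1 being reached by 8.53% and 31.4% of coding sequences. On the opposite strand the densities of the 8 genes ranged from 0 per kb in mmi1 to 3.56 per kb in rec8, and the median over all coding sequences was 1.49 per kb. Counted over the whole RefSeq transcript, untranslated parts included, the order of spo5 and rec25 turned. spo5 held 14 copies in 2002 bases, a number reached by 0.902% of transcripts, and rec25 held 9 in 2610 bases, reached by 5.98%. rec8 held 15, ssm4 13, mei4 11, red1 10, mmi1 8 and meu1 5 copies per transcript.

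A match to the hexamer describes these letters and is not a mapped binding site. The densest stretch is shown for each meiotic gene but not for mmi1 and red1. Each is the sense strand, 5′ to 3′, with TNAAAC in capitals.
mei4 (chromosome II, plus strand, coding bases 679 to 824): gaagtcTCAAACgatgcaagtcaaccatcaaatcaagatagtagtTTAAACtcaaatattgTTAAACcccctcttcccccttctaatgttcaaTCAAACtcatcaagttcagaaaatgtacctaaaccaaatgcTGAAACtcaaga
ssm4 (chromosome I, minus strand, coding bases 1412 to 1537): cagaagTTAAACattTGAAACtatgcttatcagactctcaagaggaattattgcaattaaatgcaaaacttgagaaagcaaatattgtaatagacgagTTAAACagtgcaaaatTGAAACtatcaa
rec8 (chromosome II, plus strand, coding bases 1046 to 1185): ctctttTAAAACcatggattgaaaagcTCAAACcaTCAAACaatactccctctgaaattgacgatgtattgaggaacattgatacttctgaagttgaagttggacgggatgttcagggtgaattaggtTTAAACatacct
rec25 (chromosome I, minus strand, coding bases 32 to 86): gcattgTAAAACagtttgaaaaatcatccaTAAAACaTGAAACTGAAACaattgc
spo5 (chromosome II, plus strand, coding bases 1205 to 1310): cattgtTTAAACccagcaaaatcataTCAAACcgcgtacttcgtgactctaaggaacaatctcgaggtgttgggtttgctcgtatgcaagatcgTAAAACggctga
meu1 (chromosome I, plus strand, coding bases 2244 to 2301): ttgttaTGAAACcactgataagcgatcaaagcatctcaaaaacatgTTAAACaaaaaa
Within 150 bases, mei4 held 5 copies, a number reached by 3 of the 5097 coding sequences. The densest 150 bases of ssm4, rec8 and rec25 held 4 copies each, a number reached by 34 coding sequences. In rec25 the last copies of the window are adjacent, with no base between them. The most found in 150 bases was 3 in spo5 and red1, which 4.79% of coding sequences reached, and 2 in mmi1 and meu1, which 30.9% reached.

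**Figure D1:**
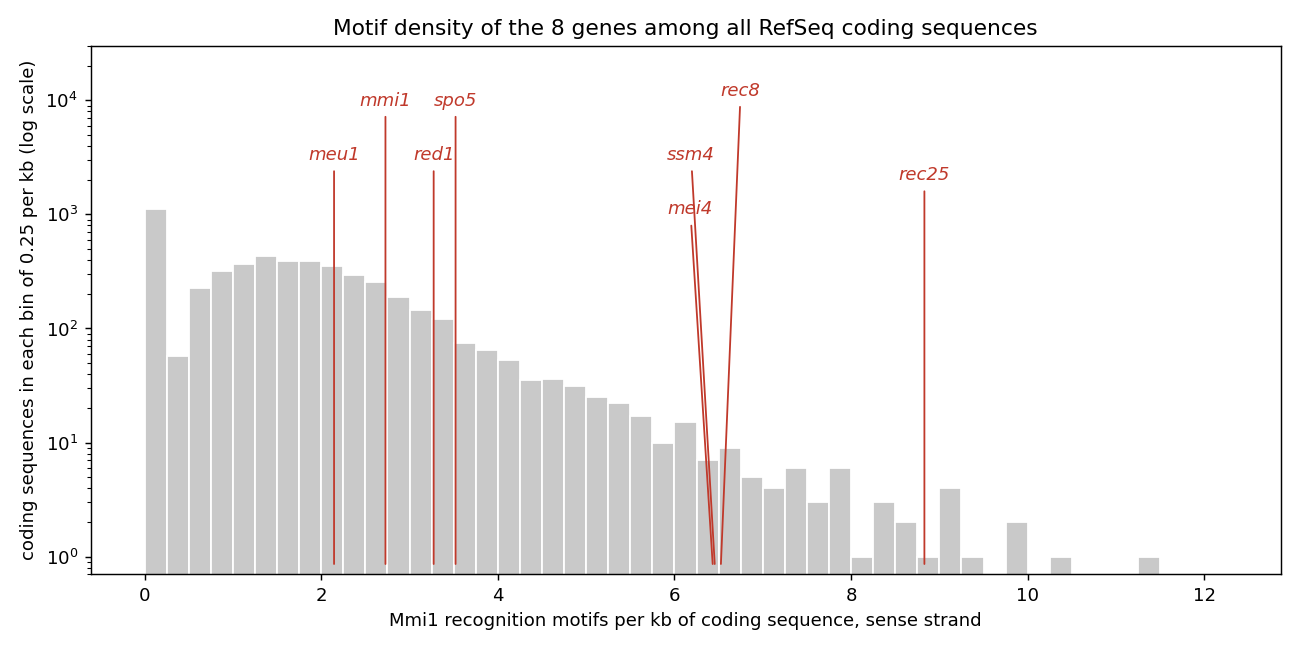
Number of copies of the Mmi1 recognition hexamer per kb of coding sequence (horizontal axis) for all RefSeq coding sequences, as counts in bins of 0.25 per kb on a logarithmic vertical axis, with the 8 genes marked by red lines. rec25, rec8, ssm4 and mei4 lie between 6.43 and 8.83 per kb, in the sparse right tail, while meu1 at 2.15 per kb lies in the bulk.

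Total counts per library ranged from 19515604 to 35919903. Several libraries stood apart from their groups in the same way: the deviation of a coding locus from its group mean was correlated with its abundance in STF6 culture 1 (r = 0.62 across 4790 coding loci, which share a library and are not replicates) and in the opposite direction in STF6 culture 3 (r = -0.64), and likewise in asp1-WT cultures 1 and 3 (r = 0.55 and -0.63) and kcs1-L338R cultures 1 and 2 (r = 0.48 and -0.49). In STF6 culture 3, 7 of the 8 genes lay above their group mean (median deviation 0.47 on the log2 scale), and in kcs1-L338R culture 1, 5 of 7 tested genes lay below it (median -0.60). Values without STF6 culture 3 or kcs1-L338R culture 1 accompany the results of the genes that lay apart there.

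**Figure D2:**
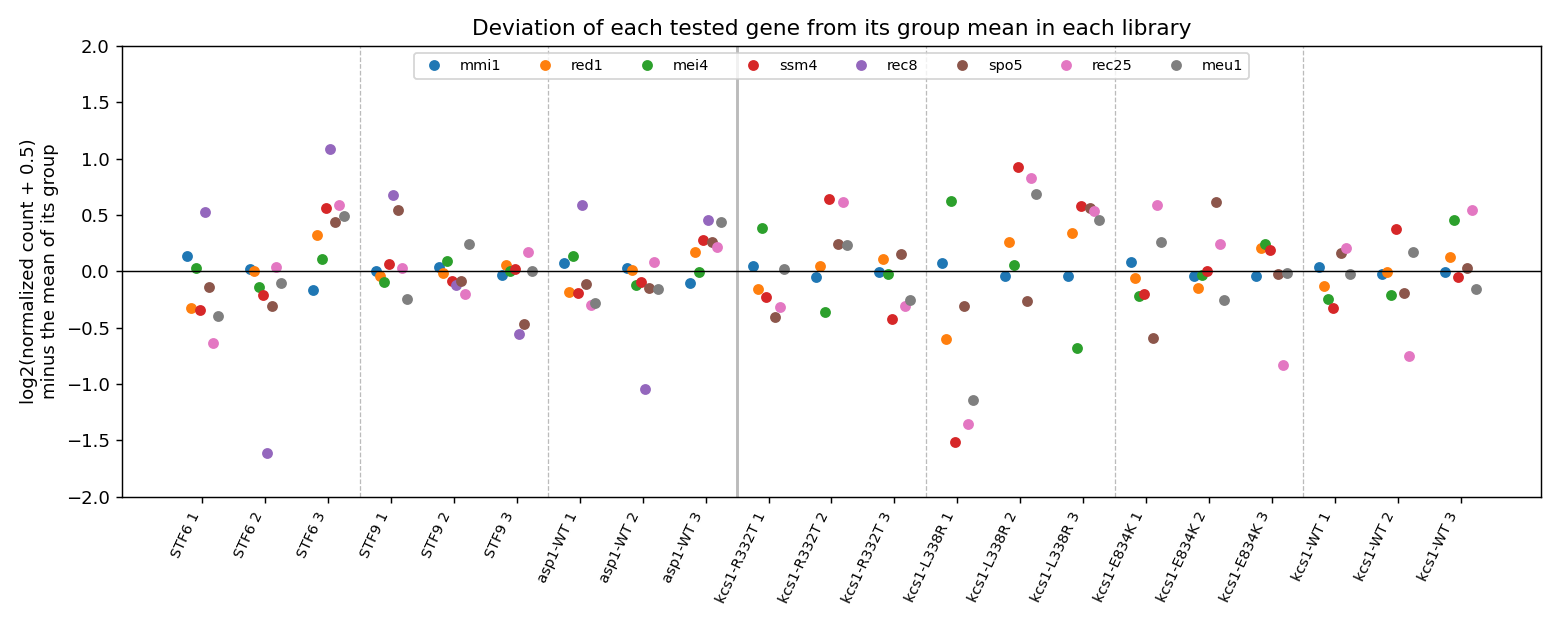
Deviation of log2(normalized count + 0.5) of each tested gene from the mean of its group (vertical axis) in each of the 21 libraries (horizontal axis), 1 colored point per gene. In STF6 culture 3 every gene except mmi1 lies above 0, and in kcs1-L338R culture 1 ssm4, rec25, meu1, red1 and spo5 lie below it.

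The levels of the 8 genes, as reads per kb of exon and per 1000000 reads (RPKM) with RefSeq exon lengths, fell into separate ranges. mmi1 had the highest level in each group, with means of 36.4 ± 3.81 RPKM in STF6 cells, 39.2 ± 0.967 in STF9 cells and 37.3 ± 2.30 in asp1-WT cells (SD, n = 3). red1 came next, with 24.1 ± 5.37 RPKM in STF6 cells, 19.7 ± 0.701 in STF9 cells and 15.2 ± 1.84 in asp1-WT cells (SD, n = 3). In the kcs1 experiment mmi1 averaged from 29.4 RPKM in kcs1-R332T to 34.0 in kcs1-L338R, with 33.7 in kcs1-WT, and red1 averaged from 7.63 in kcs1-L338R to 9.40 in kcs1-E834K, with 9.54 in kcs1-WT.

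The 6 meiotic mRNAs were scarce. In asp1-WT cells mei4, meu1 and ssm4 averaged 1.19 ± 0.109, 1.19 ± 0.336 and 1.10 ± 0.197 RPKM (SD, n = 3), which did not differ beyond their spread, and rec25 averaged 0.626 ± 0.113 RPKM. rec8 (0.145 ± 0.0766 RPKM) and spo5 (0.140 ± 0.0242 RPKM) were lowest and overlapped. In kcs1-WT cells meu1 (0.792 ± 0.0924 RPKM) and mei4 (0.729 ± 0.214) overlapped, as did ssm4 (0.402 ± 0.103), rec25 (0.385 ± 0.160) and spo5 (0.270 ± 0.0346), and rec8 was lowest at 0.0579 ± 0.0245 RPKM. The medium, the strains and the experiment differ between these 2 wild types and cannot be told apart, so that no test was made between them.

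mmi1, the recognition protein of the system, did not pass the test in either STF mutant. Its normalized counts (counts scaled by the effective library size to the mean size of the experiment) were 2984, 2753 and 2417 in STF6 cells and 2935, 3002 and 2858 in STF9 cells, against 2931, 2838 and 2598 in asp1-WT cells. The 3 groups overlapped, and the log2 fold changes were -0.04 ± 0.09 in STF6 (SE, adjusted p = 0.782) and 0.07 ± 0.09 in STF9 (adjusted p = 0.54). In the kcs1 experiment mmi1 passed the test in kcs1-R332T alone among the 3 alleles tested, falling by 0.20 ± 0.05 on the log2 scale (SE, adjusted p = 0.01). The change of mmi1 in kcs1-E834K was -0.10 ± 0.05 (SE, adjusted p = 0.187). In the direct test of kcs1-R332T against kcs1-E834K mmi1 did not pass (adjusted p = 0.216). Its counts were 2006, 1872 and 1930 in R332T cells, 2365, 2181 and 2183 in L338R cells and 2198, 2016 and 2019 in E834K cells, against 2275, 2180 and 2206 in kcs1-WT. The R332T cultures all lay below the kcs1-WT cultures, while those of the other alleles overlapped them. This fall was small, 23.2% of coding loci fell in the same comparison, and with cyclic loess normalization, which also removes trends of a library with abundance, the change was -0.11 (limma adjusted p = 0.0773).

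red1, the scaffold of the complex that joins Mmi1 to the exosome, rose in STF6. Its normalized counts were 1258, 1576 and 1969 in STF6 cells and 1268, 1294 and 1359 in STF9 cells, against 882, 1011 and 1126 in asp1-WT cells. All cultures of both mutants lay above all asp1-WT cultures, and within STF6 and asp1-WT culture 1 was lowest and culture 3 highest. The log2 fold change was 0.67 ± 0.15 in STF6 (SE, adjusted p = 0.00429), or 1.59-fold, and 0.38 ± 0.15 in STF9 (adjusted p = 0.0641). Under all 13 alternatives red1 passed in STF6, with log2 changes from 0.44 (without STF6 culture 3) to 0.78, and in STF9 it passed under 5 of 12. In the kcs1 experiment red1 was at 487, 560 and 584 in R332T cells, 284, 513 and 545 in L338R cells and 524, 496 and 631 in E834K cells, against 510, 557 and 610 in kcs1-WT, and no allele passed. The single low value was that of kcs1-L338R culture 1, and the log2 change in kcs1-L338R was -0.32 with it and -0.08 without it.

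**Figure D3:**
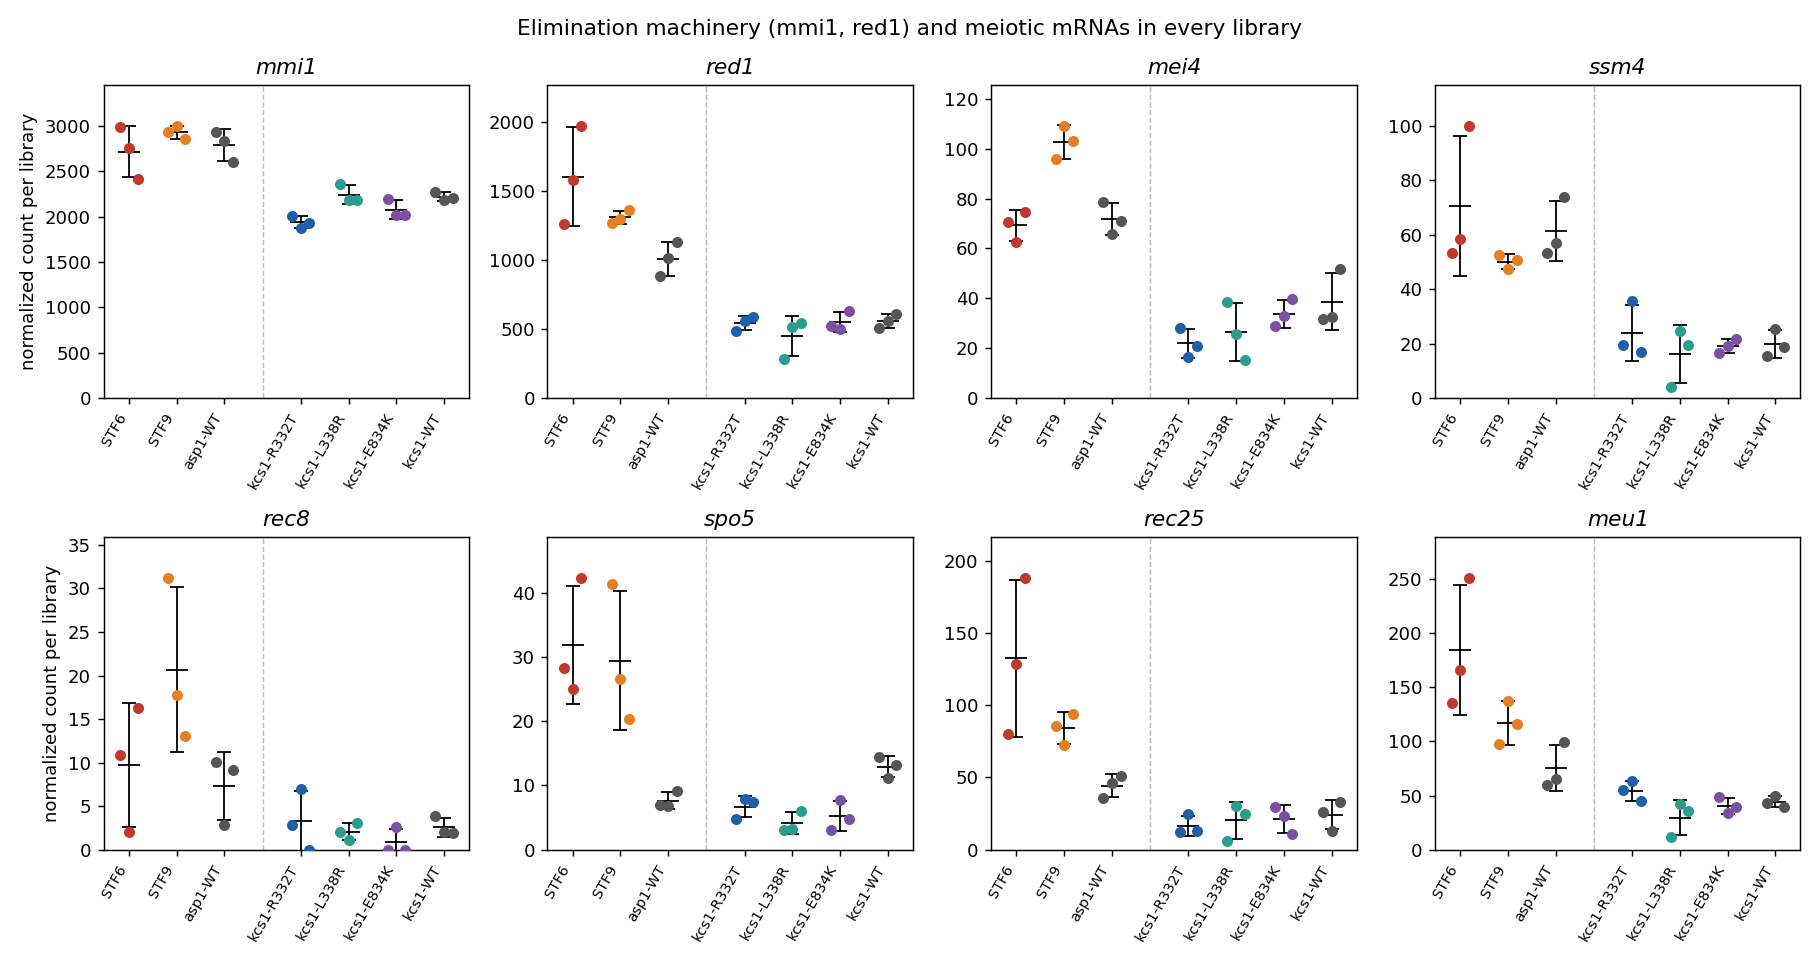
Normalized counts (vertical axes, each from 0 with its own scale) of the 8 genes in every library, by group; points are cultures 1 to 3 from left to right, and black marks give the mean ± SD (n = 3). The dashed line separates the ePMGT experiment from the YES experiment, which were normalized separately; spo5, rec25, red1 and, in STF6, meu1 lie above asp1-WT in every culture, and spo5 lies below kcs1-WT in every culture of the 3 kcs1 mutants.

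Among the meiotic mRNAs, spo5, which encodes an RNA-binding protein needed for meiotic progression and sporulation, rose most. Its normalized counts were 28.2, 25.0 and 42.4 in STF6 cells and 41.3, 26.6 and 20.3 in STF9 cells, against 6.95, 6.76 and 9.13 in asp1-WT cells. Every culture of both mutants was higher than every asp1-WT culture. The log2 fold changes were 2.06 ± 0.40 in STF6 (SE, adjusted p = 0.00193), or 4.17-fold, and 1.95 ± 0.40 in STF9 (adjusted p = 0.00277), or 3.88-fold. Both held under all alternatives (13 for STF6 and 12 for STF9), with log2 changes from 1.45 to 2.20 and from 1.58 to 2.13, although the counts behind them were only 7 to 10 reads per asp1-WT library. Without STF6 culture 3 the change in STF6 was 1.74.

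rec25, a component of the linear elements that form along meiotic chromosomes, also rose in both STF mutants. It had 80.4, 128 and 188 normalized counts in STF6 cells and 85.7, 72.8 and 94.2 in STF9 cells, against 35.5, 46.4 and 51.1 in asp1-WT cells. The groups did not overlap with asp1-WT, and STF6 culture 3 was the highest library. The log2 fold change was 1.59 ± 0.30 in STF6 (SE, adjusted p = 0.00148), or 3.00-fold, and 0.92 ± 0.30 in STF9 (adjusted p = 0.0321), or 1.9-fold. In STF6 it passed under all 13 alternatives, with a log2 change of 1.19 without STF6 culture 3, whereas in STF9 the adjusted p lay between 0.0624 and 0.0995 when asp1-WT culture 1, 2 or 3 or STF9 culture 1 or 3 was left out.

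meu1, named for its upregulation in meiosis, rose in STF6. Its normalized counts were 136, 166 and 251 in STF6 cells and 97.8, 138 and 116 in STF9 cells, against 60.2, 65.7 and 99.5 in asp1-WT cells. The STF6 cultures all lay above asp1-WT, and STF9 culture 1 overlapped the highest asp1-WT culture. The log2 fold changes were 1.30 ± 0.27 in STF6 (SE, adjusted p = 0.00284), or 2.46-fold, and 0.64 ± 0.27 in STF9 (adjusted p = 0.0838). Without STF6 culture 3, the highest library, the log2 change of meu1 in STF6 was 0.96 and still passed, as it did under the other 12 alternatives.

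The remaining meiotic mRNAs passed in neither STF mutant. mei4 encodes a forkhead transcription factor that drives the middle genes of meiosis, and it had 70.6, 62.6 and 74.8 normalized counts in STF6 cells and 95.8, 109 and 103 in STF9 cells, against 78.7, 65.7 and 71.2 in asp1-WT cells. STF6 overlapped asp1-WT and STF9 did not, with log2 changes of -0.05 ± 0.20 in STF6 (SE, adjusted p = 0.872), or -0.16 without STF6 culture 3, and in STF9 of 0.51 ± 0.20 (adjusted p = 0.0597). ssm4, a dynactin subunit used in meiotic nuclear movement, had 53.2, 58.4 and 100.04 normalized counts in STF6 cells and 52.4, 47.2 and 50.7 in STF9 cells, against 53.3, 57.0 and 73.9 in asp1-WT cells. The highest of these was again STF6 culture 3, and every STF9 culture lay below every asp1-WT culture. The log2 changes were 0.21 ± 0.27 in STF6 (SE, adjusted p = 0.608), or -0.18 without STF6 culture 3, and -0.29 ± 0.28 in STF9 (adjusted p = 0.439). rec8, the meiotic cohesin kleisin, was read only 2 to 31 times per library, with 10.9, 2.09 and 16.2 normalized counts in STF6 cells and 31.3, 17.7 and 13.0 in STF9 cells, against 10.04, 2.90 and 9.13 in asp1-WT cells. Every STF9 culture exceeded every asp1-WT culture, yet the log2 change of 1.47 ± 0.60 (SE) had an adjusted p of 0.0725 and passed under 2 of 12 alternatives, with adjusted p-values from 0.0223 to 0.293. In STF6 the log2 change of rec8 was 0.40 ± 0.65 (SE, adjusted p = 0.692), or -0.27 without STF6 culture 3.

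In all, 4 of the 8 genes (red1, spo5, rec25 and meu1) rose in STF6, where 13.9% of 4997 coding loci tested rose, and 0 fell, where 12% fell. In STF9, 2 of the 8 (spo5 and rec25) rose, where 17.6% of coding loci rose, and 0 fell, where 15.6% fell. At an unadjusted p under 0.05 the numbers of members were 4 in STF6 and 6 in STF9. The share of all coding loci at that unadjusted level was not counted, so that these numbers have no background. The median log2 change of the 8 genes was 0.53 in STF6 and 0.58 in STF9, beside 0.03 and -0.04 over the coding loci tested. Scarce transcripts are the closer background for the meiotic mRNAs: of 316 coding loci with a mean normalized count from 10 to below 200, 29.7% rose in STF6 (median log2 change 0.30) and 20.9% in STF9 (median 0.05). mmi1 and red1 averaged above this range. With the study's own thresholds (adjusted p of at most 0.05, at least a 2-fold change and normalized counts averaging at least 100 in the mutant for a rise or in the wild type for a fall), rec25 and meu1 were called in STF6, where 2.96% of coding loci were called, and no member in STF9, where 3.08% were. Without STF6 culture 3, 1 of these calls was left. The members were chosen with earlier results of these data known, and the study itself lists rec25 and meu1 as raised in STF6. The shares and medians therefore stand beside the members as a description and are not a test of them.

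The STF9 count depended on the fit more than the STF6 count. With only STF9 and asp1-WT in the fit 6 members passed in STF9, but 2618 of 4983 coding loci then passed, against 1660 of 4997 in the main fit. With DESeq2 4 members passed, beside 1734 of 5095 coding loci. Leaving out asp1-WT culture 1, 2 or 3 or STF9 culture 1 or 3 left 1, spo5, beside 1047 to 1625 coding loci. Both STF mutants were set against the same asp1-WT cultures, so that their changes are not independent. Between the mutants, STF9 against STF6, 0 members passed the edgeR test (0.08% of coding loci did), 3 had an unadjusted p under 0.05 (mei4, meu1 and rec25), and DESeq2 passed 0. The share of coding loci at that unadjusted level was not counted. The log2 differences, STF9 over STF6, were 0.56 ± 0.20 for mei4, -0.66 ± 0.26 for meu1 and -0.66 ± 0.29 for rec25 (SE, adjusted p = 0.211 for mei4 and meu1 and 0.214 for rec25). Without STF6 culture 1, red1, rec25 and meu1 passed as lower in STF9, but the number of coding loci that passed was then 1933, against 4 with all cultures.

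**Figure D4:**
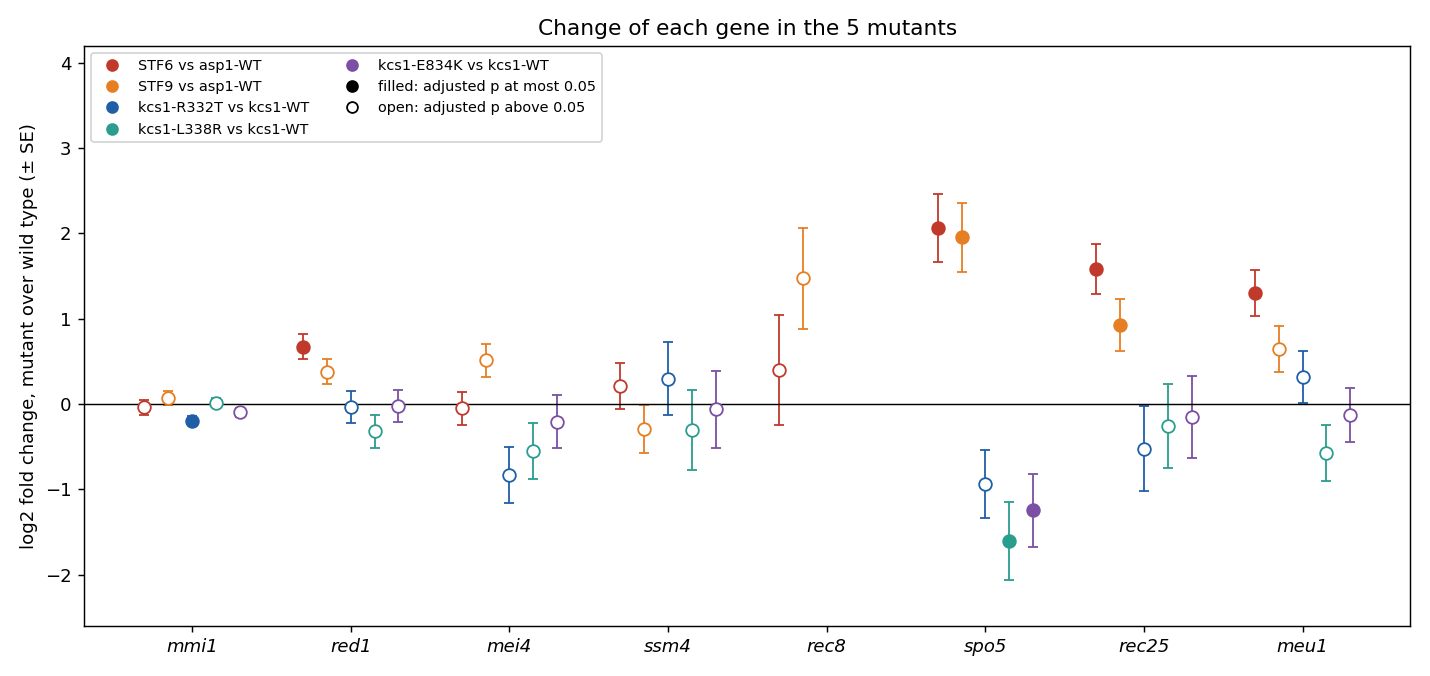
Log2 fold change of each gene, mutant over its own wild type, with its standard error (vertical axis), for the 5 mutants; filled points have an adjusted p of at most 0.05, and rec8 was not tested in the kcs1 experiment. spo5 changed in opposite directions, by 2.06 in STF6 and 1.95 in STF9 and by -1.61 in kcs1-L338R and -1.25 in kcs1-E834K. These experiments differ in medium and wild type. The kcs1 falls passed under 7 of 13 alternatives in kcs1-L338R and 4 of 12 in kcs1-E834K, and in neither with DESeq2.

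In the kcs1 mutants spo5 took the opposite direction. Its normalized counts were 4.83, 7.86 and 7.37 in R332T cells, 3.12, 3.22 and 6.11 in L338R cells and 3.08, 7.79 and 4.83 in E834K cells, against 14.5, 11.2 and 13.2 in kcs1-WT. Every mutant culture lay below every kcs1-WT culture. It fell by 1.61 ± 0.45 on the log2 scale in kcs1-L338R (SE, adjusted p = 0.0206) and by 1.25 ± 0.43 in kcs1-E834K (adjusted p = 0.0422), and the log2 change of -0.94 ± 0.40 in kcs1-R332T had an adjusted p of 0.0849. These rest on 3 to 9 reads per mutant library against 11 to 15 per wild-type library, and the 3 alleles share the kcs1-WT cultures. DESeq2 gave adjusted p-values of 0.108 in kcs1-L338R and 0.182 in kcs1-E834K, leaving out kcs1-WT culture 1 or 3 or kcs1-L338R culture 1 ended the L338R call (log2 change -1.44 without kcs1-L338R culture 1), and leaving out any kcs1-WT culture or kcs1-E834K culture 1 or 3 ended the E834K call. Same-numbered cultures of kcs1-L338R and kcs1-WT deviated together, and in a fit of these groups alone with the replicate block the L338R change of -1.60 had an adjusted p of 0.0533.

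The other meiotic mRNAs did not pass in the kcs1 mutants. mei4 had 28.0, 16.6 and 21.1 normalized counts in R332T cells, 38.4, 25.8 and 15.3 in L338R cells and 28.8, 32.9 and 39.8 in E834K cells, against 31.8, 32.5 and 51.8 in kcs1-WT. The R332T cultures lay below kcs1-WT with a log2 change of -0.83 ± 0.33 (SE, adjusted p = 0.0646), and the other alleles overlapped it. In R332T cells mei4 passed under 2 of 12 alternatives. rec25 ranged from 6.23 to 30.1 normalized counts over the 9 mutant cultures, against 13.2 to 33.0 in kcs1-WT, and ssm4 from 4.16 to 35.8, against 15.4 to 25.4. meu1 had 55.1, 63.7 and 45.3 in R332T cells, 11.4, 41.9 and 35.6 in L338R cells and 48.3, 33.7 and 39.8 in E834K cells, against 43.4, 49.8 and 39.6 in kcs1-WT. The lowest values of rec25, ssm4 and meu1 all came from kcs1-L338R culture 1. With and without that culture the log2 changes in kcs1-L338R were -0.26 and 0.16 for rec25, -0.31 and 0.15 for ssm4, -0.58 and -0.19 for meu1 and, for mei4, which was high there, -0.55 and -0.93. rec8 was read 0 to 8 times per library, too few to be tested, and the count of 0 in kcs1-R332T culture 3 and in kcs1-E834K cultures 1 and 3 allows a level of at most 0.154 CPM in each (3 counts of the library total, counting error only).

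In counts, 1 of the 7 genes tested fell in each kcs1 mutant and 0 rose. That gene was mmi1 in kcs1-R332T, where 23.2% of 4970 coding loci fell and 13.5% rose, and spo5 in kcs1-L338R, where 13.1% fell and 11% rose, and in kcs1-E834K, where 18.3% fell and 10.5% rose. At an unadjusted p under 0.05, a level at which the share of all coding loci was not counted, there were 3 members in kcs1-R332T and 1 each in kcs1-L338R and kcs1-E834K. Members called with the study's thresholds numbered 0 in every kcs1 mutant, where 0.765% of coding loci were called for R332T, 0.765% for L338R and 0.865% for E834K; DESeq2 also gave 0. The median log2 changes of the 7 genes were -0.20, -0.32 and -0.13 for kcs1-R332T, L338R and E834K, beside -0.01, -0.05 and -0.01 over all coding loci tested. Of 498 coding loci with a mean normalized count from 10 to below 200, 5.62%, 4.82% and 2.21% fell in R332T, L338R and E834K cells, with median log2 changes of 0.28, -0.06 and 0.17. Over the kcs1 libraries mmi1 averaged above this range and spo5 below it, so that these shares describe neither gene that fell.

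Between the kcs1 alleles the differences in the 7 genes were few. In kcs1-R332T against kcs1-L338R, where 40.5% of coding loci differed, mmi1 was lower in kcs1-R332T by a log2 difference of -0.21 ± 0.05 (SE, adjusted p = 0.00761) and meu1 was higher by 0.89 ± 0.32 (adjusted p = 0.0447). For mmi1 the groups did not overlap and the difference passed under all 12 alternatives, whereas the meu1 call was lost when any kcs1-R332T culture or kcs1-L338R culture 1 or 3 was left out, the log2 difference being 0.51 without kcs1-L338R culture 1 (adjusted p = 0.148). In kcs1-R332T against kcs1-E834K (14.6% of coding loci differed) and in kcs1-L338R against kcs1-E834K (0%), 0 members passed in edgeR, 0 had an unadjusted p under 0.05 and 0 passed in DESeq2. The log2 difference of spo5 between kcs1-L338R and kcs1-E834K was -0.36 ± 0.54 (SE), too wide for these read numbers to show that the alleles act alike.

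Of 16 other factors of the elimination pathway, which include subunits of the Red1 complex, the nuclear exosome and cleavage and polyadenylation factors, 1 rose and 2 fell in STF6 and 1 rose and 4 fell in STF9. pcf11, a cleavage and polyadenylation factor, fell by 0.71 ± 0.08 on the log2 scale in both STF6 (SE, adjusted p = 1.84e-05) and STF9 (adjusted p = 1.96e-05). Its normalized counts were 2066, 2036 and 1866 in STF6 cells and 2039, 1872 and 2059 in STF9 cells, against 3277, 3316 and 3166 in asp1-WT cells, with no overlap. iss10, which links Red1 to Mmi1, rose by 0.22 ± 0.08 in STF6 (adjusted p = 0.0404), and mtl1, the helicase of the Red1 complex, fell by 0.57 ± 0.16 in STF9 (adjusted p = 0.0145). In the kcs1 mutants 0 of the 16 rose and 3 fell in R332T cells, 3 in L338R cells and 2 in E834K cells, among them the exosome nuclease dis3 (log2 changes -0.45, -0.34 and -0.44 in the order just given) and the cap-binding subunit cbc1 (-0.33, -0.27 and -0.24). The median log2 change of the 16 ranged from -0.19 in kcs1-L338R to 0.06 in kcs1-R332T. Of 7 Ccr4-Not subunits, which shorten poly(A) tails, 1 fell in STF6 (not1, by 0.36 ± 0.09), in kcs1-R332T (ccr4, by 0.39 ± 0.09) and in kcs1-L338R (rcd1, by 0.17 ± 0.05), and none rose in any of the 5 mutants. Beside these counts stand the shares of all coding loci, of which 13.9% rose and 12% fell in STF6, 17.6% and 15.6% in STF9, 13.5% and 23.2% in R332T cells, 11% and 13.1% in L338R cells and 10.5% and 18.3% in E834K cells, so that several of the counts were near the background. The same shares stand beside the counts of the meiotic lists, for which the scarce coding loci described above are the closer background. Of those scarce loci, 29.7% rose and 10.4% fell in STF6, and 20.9% rose and 14.9% fell in STF9. The counts of recombination and mug genes that rose in the STF mutants, given below, were near these shares.

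Of the 5 genes listed for the switch into meiosis, all tested, 3 rose in each STF mutant and 0 fell, and 1 rose and 2 fell in kcs1-R332T, 3 rose in kcs1-L338R and 4 rose in kcs1-E834K. The meiRNA gene sme2 rose in both STF mutants, with 55.4, 57.4 and 91.9 normalized counts in STF6 cells and 58.5, 52.1 and 59.4 in STF9 cells, against 19.3, 12.6 and 9.13 in asp1-WT cells (log2 changes 2.30 ± 0.33 and 2.02 ± 0.33, SE). It also rose in kcs1-R332T, by 1.36 ± 0.50 (adjusted p = 0.0489), and in kcs1-E834K, by 1.43 ± 0.50 (adjusted p = 0.0461), and had a change of 1.04 ± 0.53 in kcs1-L338R (adjusted p = 0.179). Its kcs1 means were 14.3 normalized counts in R332T cells, 11.5 in L338R cells and 14.8 in E834K cells, against 5.61 in kcs1-WT, on 3 to 23 reads per library. mei2 changed by 1.63 in STF6, 1.80 in STF9, -0.85 in R332T cells, 1.75 in L338R cells and 1.66 in E834K cells on the log2 scale, and ste11, the transcription factor for sexual differentiation, by 1.39, 1.65, -0.59, 0.57 and 0.56, all past the test. In kcs1-L338R and kcs1-E834K mei2 rose, while of the meiotic mRNAs among the members only spo5 passed, as lower. The spo5 fall passed under 7 of 13 alternatives in kcs1-L338R and 4 of 12 in kcs1-E834K. DESeq2 gave it adjusted p-values of 0.108 and 0.182.

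Some other meiotic mRNAs described as Mmi1 targets rose in the STF strains, in a list also chosen with earlier results of these data known. Of 5 tested, 4 rose in STF6 (median log2 change 1.09) and 3 in STF9 (median 0.92), and none fell. num1 (mcp5), a cortical anchor for meiotic nuclear movement, had 113, 178 and 207 normalized counts in STF6 cells and 99.8, 97.4 and 117 in STF9 cells, against 67.2, 57.0 and 41.1 in asp1-WT cells. No mutant culture overlapped asp1-WT, with log2 changes of 1.59 ± 0.26 in STF6 (SE, adjusted p = 0.000542) and 0.92 ± 0.26 in STF9 (adjusted p = 0.017). mug8 rose by 1.09 ± 0.16 and 1.18 ± 0.16, and crs1, a meiotic cyclin, by 1.23 ± 0.35 and 1.18 ± 0.35 on the log2 scale in STF6 and STF9. In the kcs1 mutants 1 of the 5 rose and 1 fell in kcs1-R332T (mcp7 by 1.2 ± 0.39 and mug8 by -0.83 ± 0.18), and 0 passed in kcs1-L338R or kcs1-E834K.

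Of 6 genes tested for meiotic cohesin and linear elements, 3 rose in STF6 and 2 rose and 1 fell in STF9, and 0 of 5 passed in any kcs1 mutant. hop1, which like rec25 encodes a linear element protein, rose by 2.24 ± 0.29 in STF6 (SE, adjusted p = 8.42e-05) and by 1.74 ± 0.29 in STF9 (adjusted p = 0.000685), and rec11, the cohesin partner of Rec8, by 1.32 ± 0.27 and 0.92 ± 0.28. The gene that fell in STF9 was sgo1, the protector of Rec8 cohesin, with a log2 change of -0.84 ± 0.23. Of 10 recombination genes 3 rose in STF6 and 2 in STF9, and none fell, and of 6 tested in the kcs1 experiment 2 rose in each mutant and 1 fell in kcs1-R332T (rec14, by 0.29 ± 0.08). The recombinase gene dmc1 rose in STF6 by 2.08 ± 0.55, with means of 19.7 normalized counts in STF6 and 4.32 in asp1-WT, and it rose in kcs1-L338R and kcs1-E834K by 1.30 ± 0.28 in each. Of 10 tested sporulation and late-meiosis genes, 4 rose and 1 (spo3, by 0.84 and 0.68 on the log2 scale) fell in both STF6 and STF9. The meiotic septin gene spn6 rose by 2.55 ± 0.27 in STF6 (adjusted p = 1.88e-05) and 2.1 ± 0.28 in STF9 (adjusted p = 0.000105), and also in kcs1-L338R and kcs1-E834K by 1.28 ± 0.43 in each. Over this list 1 fell in kcs1-R332T, 1 rose and 2 fell in kcs1-L338R, and 2 rose and 2 fell in kcs1-E834K. The falls were small, in bgs2, a spore wall glucan synthase gene (log2 changes -0.13, -0.15 and -0.14 for R332T, L338R and E834K), and in mes1, an inhibitor of the anaphase-promoting complex in meiosis (-0.25 and -0.28 for L338R and E834K).

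**Figure D5:**
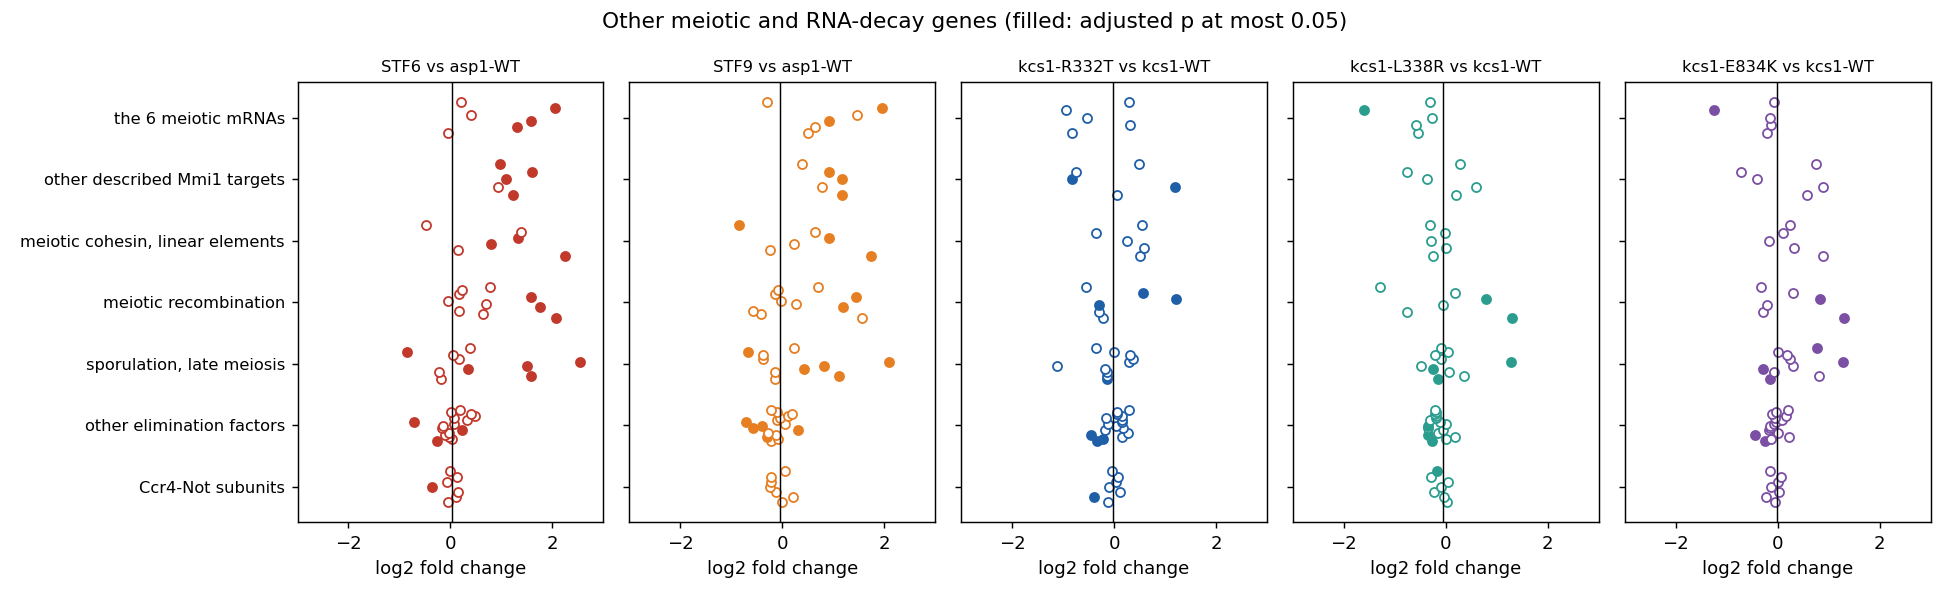
Log2 fold change, mutant over wild type (horizontal axes), of each tested gene of 7 lists (rows), 1 panel per mutant; filled points have an adjusted p of at most 0.05 and the vertical line is the median over all coding loci tested. The filled points of the meiotic lists lie mostly to the right in STF6 and STF9, and pcf11 is the leftmost of the other elimination factors there. Of scarce coding loci, 29.7% rose and 10.4% fell in STF6, and 20.9% rose and 14.9% fell in STF9.

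Names given for meiotic expression covered a broader set that did not move as a block. Of 19 tested genes named meu other than meu1, 8 rose and 4 fell in STF6 and 4 rose and 3 fell in STF9. Of 84 tested genes named mug, 22 rose and 10 fell in STF6 (median log2 change 0.15) and 21 rose and 11 fell in STF9 (median 0.06). The largest were mug62 (3.04 ± 0.55), mug147 (2.66 ± 0.24) and mug28 (2.60 ± 0.55) in STF6. In the kcs1 mutants the mug counts were 11 up and 15 down of 83 in R332T cells, 5 and 7 in L338R cells and 8 and 8 in E834K cells.

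Since meiosis needs cells of both mating types, their markers are given beside these counts. The h+ markers map2 and map3 summed to between 3128 and 4070 normalized counts in STF6 and 4279 and 4654 in STF9, against 1280 to 1352 in asp1-WT, and both genes rose in both mutants. The 5 markers of h- cells summed to between 1589 and 1967 in STF6 and 1798 and 1909 in STF9, against 2346 to 2565 in asp1-WT. None of the 5 was at 0 in all libraries of a group. Most of each sum came from mam1, which averaged 1354 in STF6 cells, 1432 in STF9 cells and 2097 in asp1-WT cells. mam1, whose product exports the M-factor pheromone, fell in both STF mutants, and the M-factor genes mfm1 and mfm2 rose in both mutants, mfm1 with means of 46.3 in STF6 cells and 42.5 in STF9 cells, against 14.7 in asp1-WT cells. The part of h- or mating cells in the changes of the meiotic mRNAs was not tested.

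The coding genes whose 5 log2 changes were nearest to those of a member, by the root mean square difference over the 5 mutants, were eif21 (0.01) and ppa2 (0.02) for mmi1 and alx1 (0.07) and spt2 (0.09) for red1, among 4685 loci whose normalized counts averaged at least 100 in both experiments. The rises of rec25 were nearest to those of rga3 and ssb3 (0.19 each). spo5 had no close match, the nearest being cnp3 (0.42), which encodes a kinetochore protein and had log2 changes of 1.74 in STF6 and 1.42 in STF9 and of -0.75, -1.14 and -0.74 in the kcs1 mutants. For mei4, ssm4 and meu1 the nearest genes were dut1 (0.21), mst1 (0.05) and spc24 (0.27).

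Of the counted genes that overlap a member, none rose in STF6 or STF9. The exons of rec25 overlap 2092 bases of pex6 on the opposite strand in the RefSeq annotation, and pex6 had log2 changes of -0.24 in STF6 (adjusted p = 0.126) and -0.53 in STF9 (adjusted p = 0.00299), opposite in sign to those of rec25. spo5 overlaps 127 bases of pcf1 on the opposite strand, which had changes of 0.04 and -0.37 (adjusted p = 0.885 and 0.082). red1 overlaps 68 bases of asa1 on the opposite strand, which fell by 0.34 in STF6 and 0.33 in STF9. mei4 shares 115 bases with cdk9 on the same strand, and cdk9 fell by 0.62 in STF9 (adjusted p = 0.00851), where mei4 had a change of 0.51. meu1 overlaps no counted locus.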

How the data were processed

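Poly(A)+ RNA was sequenced as paired 51-base reads. The authors mapped the reads with HISAT2 2.1.0 to ASM294v2 and deposited counts of reads per locus from HTSeq 0.10.0 with the PomBase exon annotation. The strand setting is not given in the sources used here, and the library kit is named differently by the labels and the methods. Of 380 counted loci nested in a single-exon locus of the opposite strand, 362 had reads. The authors' own comparison tables (DESeq2 fold changes and p-values) were not used.

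All groups of an experiment entered a single fit in R 4.3.3 with edgeR 4.0.16 (TMM, filterByExpr by group, quasi-likelihood test, prior count 0.125, Benjamini-Hochberg adjustment over all loci tested, 6144 of 6988 in the STF experiment and 6093 in the kcs1 experiment). Standard errors (SE) were obtained as the log2 change over the root of the F statistic. A gene rose, fell or passed where its adjusted p was at most 0.05. Coding loci are those RefSeq lists as protein-coding, or, where unmatched, whose identifier names no RNA. The fit was tested on simulated data: of 50 loci changed 2-fold, 48 were recovered for STF6 against asp1-WT among 6127 loci and 49 for kcs1-R332T against kcs1-WT among 6072. Loci as scarce as spo5 and rec8 were not among those changed, nor were loci as scarce as ssm4 and rec25 in the kcs1 simulation. The simulated libraries had no trends with abundance, so that recovery was not measured for such loci or such libraries.

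The members and gene lists were chosen with earlier results of these data known. Named list genes are the up to 3 with the largest change among those that passed in a comparison. Genes most like a member are the nearest 2 by root mean square difference. Alternatives were size factors of DESeq2 in edgeR, DESeq2 1.42.0, no filter on low counts, only the 2 groups compared, the replicate block, each culture left out, and no count minimum. Added after seeing the data were limma 3.58.1 (voom) with cyclic loess normalization and, for the paired comparisons, the 2 groups alone with the block. Same-numbered cultures deviated together in every pair between STF6 and asp1-WT (r from 0.24 to 0.51) and between kcs1-L338R and kcs1-WT (0.11 to 0.34), so that the numbers were taken to pair these samples. In no other comparison did every pair deviate together. Within the pairs so taken, same-numbered cultures also shared the sign of their correlation with abundance. A pairing of cultures and a trend of the libraries therefore cannot be told apart. Coordinates of the reference are not printed, since its build differs from that of the counts.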

Additional observations from a re-analysis of the deposited data

Results flagged for a closer look

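Of the members tested, 2 differed between alleles of one gene in a direct test, both in kcs1-R332T against kcs1-L338R. In that comparison 40.5% of coding loci differed. mmi1 was lower in kcs1-R332T than in kcs1-L338R, with a log2 difference of -0.21 and no overlap of the cultures. meu1 was higher in kcs1-R332T than in kcs1-L338R, with a log2 difference of 0.89, and its lowest library was kcs1-L338R culture 1. The meu1 difference passed under only 5 of 12 alternatives and had a DESeq2 adjusted p of 0.0629. Groups of 3 cultures were too small for an outlier test.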

How the results depend on the processing

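The direction of every member that passed held under every alternative run. The STF6 count of members passing was 4 throughout, while members called with the study's thresholds were 1 without STF6 culture 3 (1 to 2 over the cultures left out). The STF9 count was 5 with the replicate block, 6 with only the 2 groups, 4 with cyclic loess and 4 with DESeq2, and 1 to 2 with a culture left out. Coding loci that passed in STF9 numbered 2343 with the replicate block, 2136 with cyclic loess and 1734 with DESeq2. In kcs1-R332T 2 members passed with only the 2 groups (mmi1 and mei4) and 2 with cyclic loess (mei4 and spo5). All of these were lower, and mmi1 did not pass with cyclic loess. The spo5 call left kcs1-L338R with 0 members under the 2 groups alone, the 2 groups with the replicate block, and DESeq2, and 0 to 1 with a culture left out. It left kcs1-E834K with 0 under the replicate block, the 2 groups alone and DESeq2, and 0 to 1 with a culture left out. Without the count minimum, 3 members were called in STF6, against 2 with it, and 1 each in STF9, kcs1-L338R and kcs1-E834K, against 0. For STF9 against STF6 leaving out a culture gave 0 to 3 members. For kcs1-R332T against kcs1-L338R 1 member passed with only the 2 groups or with DESeq2, and 1 to 2 with a culture left out. Coding loci that passed numbered 1292 in STF6, against 845 with only the 2 groups, 2339 with those and the replicate block and 1971 with cyclic loess, and 1660 in STF9, against 2618 with only the 2 groups and 1047 to 1075 without an STF9 culture. They numbered 1824 in kcs1-R332T, against 2784 with only the 2 groups and 1168 without kcs1-WT culture 1, and 1199 in kcs1-L338R, against 539 with only the 2 groups. Between STF9 and STF6 they numbered 4, against 410 with the replicate block, 157 with DESeq2, 1933 without STF6 culture 1 and 2 to 8 without another culture. Between kcs1-R332T and kcs1-L338R they numbered 2013, against 1025 with only the 2 groups and 1155 and 1315 without kcs1-R332T culture 2 or 3. Between kcs1-R332T and kcs1-E834K they numbered 728, against 1837 with only the 2 groups and 425 to 461 when kcs1-R332T culture 1, 2 or 3 or kcs1-E834K culture 1 or 2 was left out, and 28.7% of them were higher in kcs1-R332T, against 44.6% with cyclic loess. Between kcs1-L338R and kcs1-E834K they numbered 0, against 44 with the replicate block, 16 with DESeq2, 577 without kcs1-L338R culture 2 and 0 or 1 under the remaining alternatives. The causes were not tested. The replicate block, alone, changed the count of members in no other comparison. Of 790 member values under the alternatives, 745 kept their side of the threshold, 27 lost it and 18 gained it. Depth limits the precision of rec8 and spo5, which had under 50 reads per library. In the kcs1 experiment it also limits rec25 and ssm4, with under 50 reads in every library, and mei4, with 15 to 55.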
